A study of Homo sapiens with 6 samples.

Results

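The genes described here drive cells through G2 and mitosis. They were chosen by name, as a fixed list of 42 symbols running from CDK1 and its cyclins to the proliferation marker MKI67, and 41 of the 42 were found among the 17356 lines of gene values. RNA-seq was done on C4-2B-ENZR, an enzalutamide-resistant line of the human prostate cancer cell line C4-2B. The 6 libraries fall in 2 groups of 3: NC, transfected with a negative control siRNA, and siKIF15, transfected with an siRNA against the mitotic kinesin KIF15. The cells of both groups were grown in the same serum-containing medium, and the labels give neither the time after transfection nor the presence of enzalutamide during the experiment. Whether the 3 libraries of each group are separate cultures is not stated in the labels, and the spread behind each p-value may therefore be technical.

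CDK1 bound to cyclin A or cyclin B is the kinase that starts mitosis. PLK1 and the Aurora kinases build the spindle, the kinetochore proteins attach chromosomes to it, and BUB1, BUB1B and TTK hold back anaphase until every chromosome is attached. The anaphase-promoting complex with CDC20 then ends mitosis by marking cyclin B for destruction. Most of these genes are transcribed together late in the cycle, under the MuvB complex with MYBL2 (B-MYB) and FOXM1, and are repressed together when p53 and p21 arrest the cycle. A fall of the whole set is therefore a common readout of fewer dividing cells; in bulk RNA, fewer cycling cells and less RNA per cell cannot be told apart.

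The elements through which MuvB and the CCAAT-binding factor NF-Y are known to act can be searched for in the promoters. RefSeq promoters on GRCh38.p14 (250 bases before to 50 after the start) were available for 35 of the 42 genes. The cell cycle homology region, searched as TTTGAA or TTCGAA on both strands, was found in 26 of the 35 (74.3%), against 19.5% of 27305 symbols with a promoter. The CCAAT box, searched on both strands as CCAAT, was found in 27 of the 35 (77.1%), against 39.7% of all symbols. Both were present in 22 of the 35 (62.9%), against 9.02%. The motifs do not overlap in letters, and a match is a description, not a shown binding site. Promoters are given for 4 members: CCNB2, CDC20 and PLK1 as core regulators whose signal did not pass the test below, and CENPF as a member that fell. Capitals mark both motifs.
CCNB2, chr15:59104896-59105195, + strand: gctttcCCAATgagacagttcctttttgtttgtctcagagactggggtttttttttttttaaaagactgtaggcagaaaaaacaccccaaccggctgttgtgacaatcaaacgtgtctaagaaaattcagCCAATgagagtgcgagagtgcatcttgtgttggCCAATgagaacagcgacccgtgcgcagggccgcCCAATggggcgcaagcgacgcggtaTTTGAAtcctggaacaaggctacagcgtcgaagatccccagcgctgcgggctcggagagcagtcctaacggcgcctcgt
CDC20, chr1:43358731-43359030, + strand: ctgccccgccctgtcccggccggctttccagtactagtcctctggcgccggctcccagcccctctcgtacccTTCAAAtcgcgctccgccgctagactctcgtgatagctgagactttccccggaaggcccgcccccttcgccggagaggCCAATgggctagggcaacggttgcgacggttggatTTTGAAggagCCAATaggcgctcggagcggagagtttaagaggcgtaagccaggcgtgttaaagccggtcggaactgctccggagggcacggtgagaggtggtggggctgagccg
PLK1, chr16:23678639-23678938, + strand: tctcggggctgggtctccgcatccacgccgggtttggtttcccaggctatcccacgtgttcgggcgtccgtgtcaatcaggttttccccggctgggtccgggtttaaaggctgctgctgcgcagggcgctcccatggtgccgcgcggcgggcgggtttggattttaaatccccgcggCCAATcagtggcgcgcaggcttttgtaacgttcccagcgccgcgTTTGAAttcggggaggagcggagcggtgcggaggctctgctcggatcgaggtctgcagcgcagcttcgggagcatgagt
CENPF, chr1:214602945-214603244, + strand: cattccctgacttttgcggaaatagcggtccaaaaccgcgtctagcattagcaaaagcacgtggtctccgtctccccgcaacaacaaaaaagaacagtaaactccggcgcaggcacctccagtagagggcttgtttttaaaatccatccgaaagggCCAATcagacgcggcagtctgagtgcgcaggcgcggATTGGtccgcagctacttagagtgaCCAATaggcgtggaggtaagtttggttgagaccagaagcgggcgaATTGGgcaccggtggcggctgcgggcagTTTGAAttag
CCNB2 and CENPF each held 4 CCAAT matches and 1 cell cycle homology match, PLK1 held 1 of each, and CDC20 held 2 of each. These are 4 promoters picked from 35, and whether motif counts differ between called and other members was not tested. All 4 hold both motifs, which 22 of the 35 do. CCNA2 and CCNB1 held no cell cycle homology match, and ANLN, which also fell, held no CCAAT match.

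Each gene has 1 deposited signal value per library, in a unit that is not stated. The values carry no read counts, so the depth of the libraries is unknown. Expression was high for the luminal prostate gene KLK3 (64846 ± 2407.4, SD, n = 3, in NC), whereas the leukocyte marker PTPRC averaged 1.6 ± 2 in NC. The targeted gene KIF15 measured 366.4, 403.6 and 319 in the NC libraries and 294.8, 333.1 and 363 with siKIF15. The groups overlapped, and the log2 change was -0.13 ± 0.14 (SE, limma adjusted p = 0.565). A lower KIF15 level was thus not seen beyond the spread, and siKIF15 below means the libraries labelled as KIF15 knockdown. Across the table, 2978 of 16548 tested genes were called (18%); 9.66% of the tested genes were higher and 8.33% lower.

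Of the 42 members, 4 lie on chromosome 20, and none of the 4 could be quantified. AURKA (chromosome 20, 56369390 to 56392215, GRCh38.p14), the kinase that matures centrosomes, was listed at 0 in every library except siKIF15 2, at 4.1. UBE2C, the ubiquitin-conjugating enzyme of the anaphase-promoting complex, had values of 7.2, 0.2 and 0 in the NC libraries and 0 in all 3 siKIF15 libraries. TPX2, the spindle protein that activates Aurora A, measured 15.8, 7.9 and 5.6 in the NC libraries and 5.3, 10.4 and 7.2 with siKIF15. MYBL2 had no line, so its expression is not analysed here. The same held for chromosome 20 as a whole: 252 of 537 RefSeq protein-coding symbols were listed (46.9%), and 1 of those 252 exceeded 100 in any library (0.397%). On the other 22 chromosomes compared (the autosomes and X), between 66.9% and 89% were listed and between 61.1% and 76.5% of those exceeded 100. The median of the genes' mean signal was 1.7 on chromosome 20 and between 359 and 1622.5 on the others. AURKA and UBE2C passed the filter on low values (a mean of at least 1) through 1 group alone. These values are no measure of how much AURKA, UBE2C or TPX2 these cells express, and no fold is given for them.

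**Figure D1:**
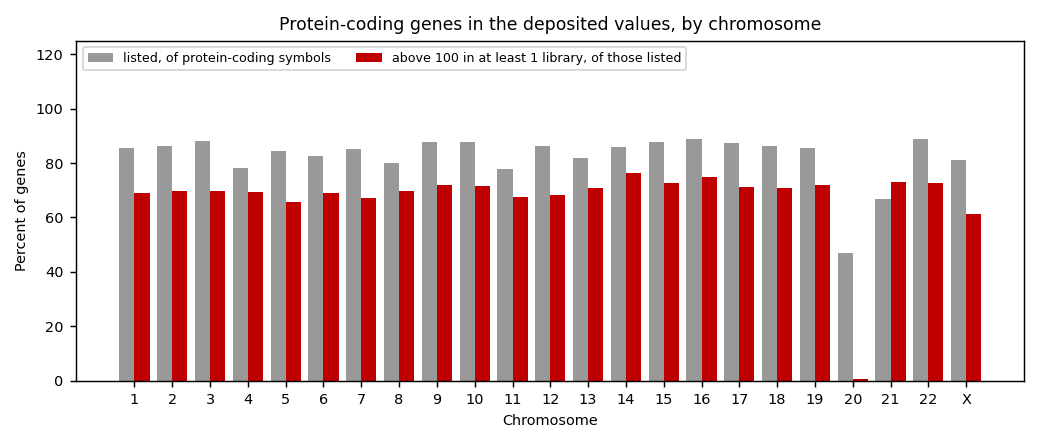
Share of RefSeq protein-coding genes listed in the deposited values (grey) and share of the listed genes above a signal of 100 in at least 1 library (red), in percent, by chromosome. Chromosome 20 holds 46.9% listed and 0.397% above 100, below every other chromosome shown.

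The other 38 members were quantified, with NC means from 417.6 (SGO2) to 9068.3 (FOXM1). Among all 41 listed members none rose and 4 fell by limma at an adjusted p of 0.05: ASPM, CENPF, ANLN and ECT2. At an unadjusted p of 0.05 the counts were 2 higher and 6 lower. The share called was 9.76% (10.5% of the 38 quantified), against 18% of all tested genes. By direction, the 9.76% were all falls, beside 8.33% of all tested genes called lower. No member was called higher, beside 9.66% of all tested genes. The median log2 change of the 38 was -0.03, beside -0.00 over the 13789 genes at this level (a mean of at least 10 in a group, chromosome 20 aside), with 16 members above 0 and 22 below. Single members ranged from -0.61 to 0.27. For 32 of the 38, the 95% interval lay within a log2 change of 0.5 on either side of 0, that is within 1.41-fold. The groups did not overlap for 7 of the 38 (18.4%), below the 34.8% of all tested genes. The 4 that passed all pointed down. Whether the shares differ was not tested, and without siKIF15 3 they were close, as given below.

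**Figure D2:**
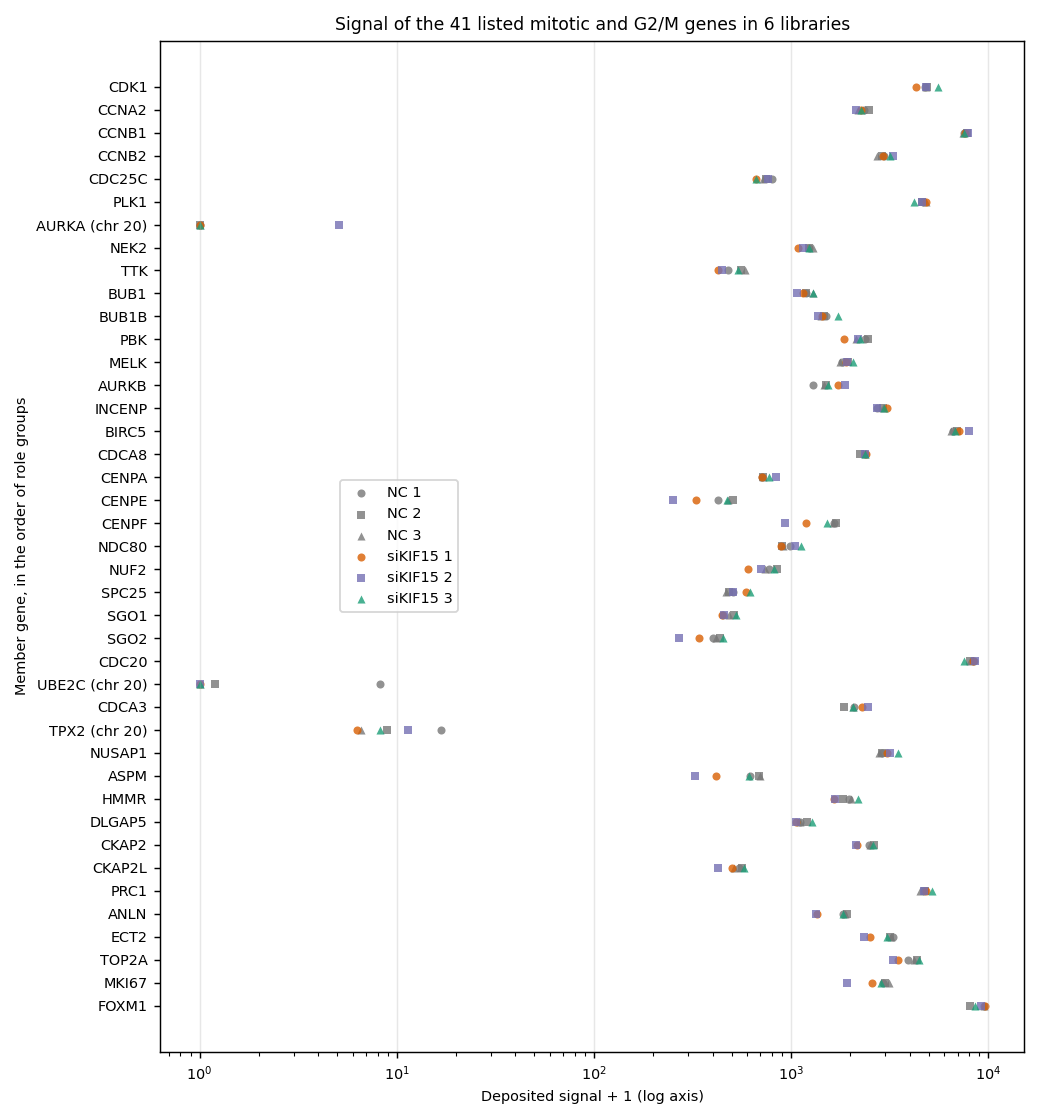
Deposited signal plus 1 (log axis) of the 41 listed members in each of the 6 libraries, grey for NC and coloured for siKIF15. Most genes show 6 points close together between 251.2 and 9652.5, and the 3 genes of chromosome 20 lie at or below 15.8.

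CDK1, its cyclins and its activating phosphatase did not pass in either direction (0 of 5 by limma, and 0 at an unadjusted p of 0.05). CDK1 measured 4804.6, 4868.3 and 4820 in the NC libraries and 4303.6, 4822.5 and 5548.1 with siKIF15. The siKIF15 values straddled the NC values, with siKIF15 1 lowest and siKIF15 3 highest of all 6. Its log2 change was 0.01 (95% interval -0.17 to 0.19; adjusted p = 0.951). CCNB1, the main cyclin B, measured 7569, 7825.1 and 7440.8 in the NC libraries and 7636.9, 7904.1 and 7539.5 with siKIF15, a log2 change of 0.02 (-0.12 to 0.15; adjusted p = 0.898). CCNB2 changed by 0.12 (-0.04 to 0.28), CCNA2, the cyclin of S and G2, by -0.07 (-0.24 to 0.09), and CDC25C, which removes the inhibitory phosphates from CDK1, by -0.12 (-0.34 to 0.11). The interval of CCNB1 reaches 1.11-fold higher at most.

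The mitotic kinases were similarly close to their controls, with no call among the 7 quantified and none at an unadjusted p of 0.05. AURKA, the other kinase of the group, could not be quantified. PLK1 measured 4656.8, 4622.6 and 4838.1 in the NC libraries and 4866.8, 4634.5 and 4211.4 with siKIF15 (log2 change -0.04, 95% interval -0.20 to 0.11, adjusted p = 0.725). Here siKIF15 3 was the lowest of the 6 libraries and siKIF15 1 the highest. TTK, the MPS1 kinase of the spindle checkpoint, had the lowest estimate of the group, -0.21 (-0.48 to 0.06), with 480, 557.2 and 586.7 in NC and 427.3, 445 and 536.2 in siKIF15. BUB1 and BUB1B changed by -0.07 and 0.04. PBK, a mitotic kinase, changed by -0.16, NEK2, which separates centrosomes, by -0.12, and MELK by 0.09, all with intervals that include 0.

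The chromosomal passenger complex, in which AURKB acts with INCENP, BIRC5 (survivin) and CDCA8 (borealin) to correct chromosome attachments, had no call among its 4 members. AURKB measured 1293.9, 1506.5 and 1465 in the NC libraries and 1733.4, 1874.3 and 1545.6 with siKIF15. The groups did not overlap, and the log2 change of 0.27 ± 0.09 (SE; interval 0.07 to 0.47) did not pass over all genes (adjusted p = 0.0583). The 18 alternative settings gave adjusted p-values of 0.00607 to 0.264, with 2 under the threshold. BIRC5 averaged 6674.7 ± 276.6 in NC and 7297.2 ± 592.1 in siKIF15 (SD, n = 3; adjusted p = 0.269). After the correction for GC content and length described below, AURKB was at 0.12 (adjusted p = 0.248). INCENP and CDCA8 changed by 0.02 and 0.03, with the sign turning to -0.04 and -0.03 when libraries were scaled to equal totals and to -0.05 and -0.04 after that correction, and CDCA8 held values of 2392.9, 2364.3 and 2370.8 in siKIF15 against 2382, 2228.5 and 2370.8 in NC. At an unadjusted p of 0.05, AURKB was the single member of the 4 to pass.

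Among the 8 genes of the centromere, the kinetochore and cohesion protection, CENPF fell and the other 7 did not pass. CENPF (chromosome 1, 214603195 to 214664571), a very large coiled-coil protein of the G2 nucleus and the outer kinetochore, measured 1644.7, 1689.2 and 1632.5 in the NC libraries and 1186.5, 936.2 and 1514 with siKIF15. All 3 siKIF15 libraries lay below all 3 NC libraries, siKIF15 2 farthest and siKIF15 3 nearest. The log2 change was -0.48 ± 0.13 (SE; 1.39-fold lower, adjusted p = 0.0187). CENPE, the kinesin that carries chromosomes to the metaphase plate, showed the same order: it measured 424.6, 506.6 and 477.6 in the NC libraries and 329.9, 251.2 and 475.1 with siKIF15. Its siKIF15 3 value lay inside the NC range, and the change of -0.46 (-0.85 to -0.07) did not pass (adjusted p = 0.0986). SGO2, which protects centromeric cohesion, measured 400.2, 436.5 and 416 in the NC libraries and 340.8, 269.9 and 453.5 with siKIF15 (-0.27; adjusted p = 0.296). Its partner SGO1 changed by -0.02.

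The subunits of the NDC80 complex, the microtubule-binding core of the kinetochore, had changes of both signs, none of which passed. NDC80 changed by 0.12, SPC25 by 0.23 and NUF2 by -0.15, with adjusted p-values of 0.473, 0.201 and 0.42. SPC25 measured 508.4, 482.1 and 467 in the NC libraries and 590.8, 504.6 and 618.9 with siKIF15. CENPA, the histone variant that marks centromeres, was nearly constant in NC at 721.2 ± 4.9 and averaged 773.2 ± 61.8 in siKIF15 (adjusted p = 0.562).

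Of the 2 quantified partners of ubiquitin ligases, CDC20 and CDCA3, neither passed, and UBE2C could not be quantified. CDC20, which directs the anaphase-promoting complex to cyclin B and securin, measured 8481.4, 8091.2 and 8075.7 in the NC libraries and 8417.4, 8615.2 and 7525.1 with siKIF15 (log2 change -0.01, 95% interval -0.16 to 0.14, adjusted p = 0.957). CDCA3, a promoter of mitotic entry, averaged 2010.3 ± 130.8 in NC and 2272 ± 192 in siKIF15 (0.18; adjusted p = 0.181). FOXM1, the transcription factor of the late cycle, had the highest signal of the members before scaling to length; it measured 9580.7, 8078.6 and 9545.5 in the NC libraries and 9652.5, 9227.2 and 8621.8 with siKIF15. Its log2 change was 0.02 (-0.15 to 0.19; adjusted p = 0.899).

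Of the 6 quantified spindle-binding proteins ASPM fell and the others did not pass, and TPX2 could not be quantified. ASPM (chromosome 1, 197084127 to 197146669), a protein of the spindle poles, measured 619.5, 684.1 and 697.5 in the NC libraries and 413.9, 326.4 and 613.3 with siKIF15, with siKIF15 3 just under the lowest NC value. Its log2 change of -0.61 ± 0.17 (SE; 1.53-fold lower, adjusted p = 0.0237) was the largest of the quantified members. NUSAP1, a microtubule-bundling protein, was higher in each siKIF15 library than in any NC library. It measured 2882.3, 2898 and 2783.7 in the NC libraries and 3078.1, 3177.8 and 3489 with siKIF15, a change of 0.18 ± 0.07 (SE) that did not pass (adjusted p = 0.101; 0.0026 to 0.302 over 18 alternatives, 2 of them under the threshold). HMMR, DLGAP5, CKAP2 and CKAP2L, all microtubule-associated, changed by -0.09, -0.01, -0.15 and -0.13.

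In the group of the midzone and cytokinesis, 2 of 3 genes fell, too few genes to set against the 8.33% of all tested genes that fell. ANLN (anillin; chromosome 7, 36389862 to 36453791), the scaffold of the contractile ring, measured 1841.9, 1926.2 and 1873.2 in the NC libraries and 1349.8, 1334.9 and 1825.7 with siKIF15. ECT2 (chromosome 3, 172750726 to 172829265), which activates RhoA at the cell equator, measured 3307.7, 3183.1 and 3214 in the NC libraries and 2519.7, 2352 and 3056.5 with siKIF15. In both genes siKIF15 1 and 2 lay well below NC, and siKIF15 3 lay just below its lowest library. The log2 changes were -0.34 ± 0.11 for ANLN (1.26-fold lower, adjusted p = 0.0406) and -0.30 ± 0.09 for ECT2 (1.23-fold lower, adjusted p = 0.0304; SE). PRC1, which bundles the midzone microtubules that anillin and ECT2 act beside, changed by 0.07 (-0.07 to 0.22).

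MKI67, the gene of the proliferation marker Ki-67, measured 2925.5, 3006 and 3143 in the NC libraries and 2563.2, 1927.2 and 2873.9 with siKIF15. The groups did not overlap, siKIF15 2 stood apart from the rest, and the change of -0.32 ± 0.11 (SE) did not pass (adjusted p = 0.0622; 0.00354 to 0.276 over 18 alternatives, 2 of them under the threshold). TOP2A, which untangles sister chromatids, measured 3925.3, 4380.5 and 4190 in the NC libraries and 3495, 3274.1 and 4459.5 with siKIF15 (-0.17; adjusted p = 0.28). Here siKIF15 3 was the highest library and siKIF15 2 the lowest.

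**Figure D3:**
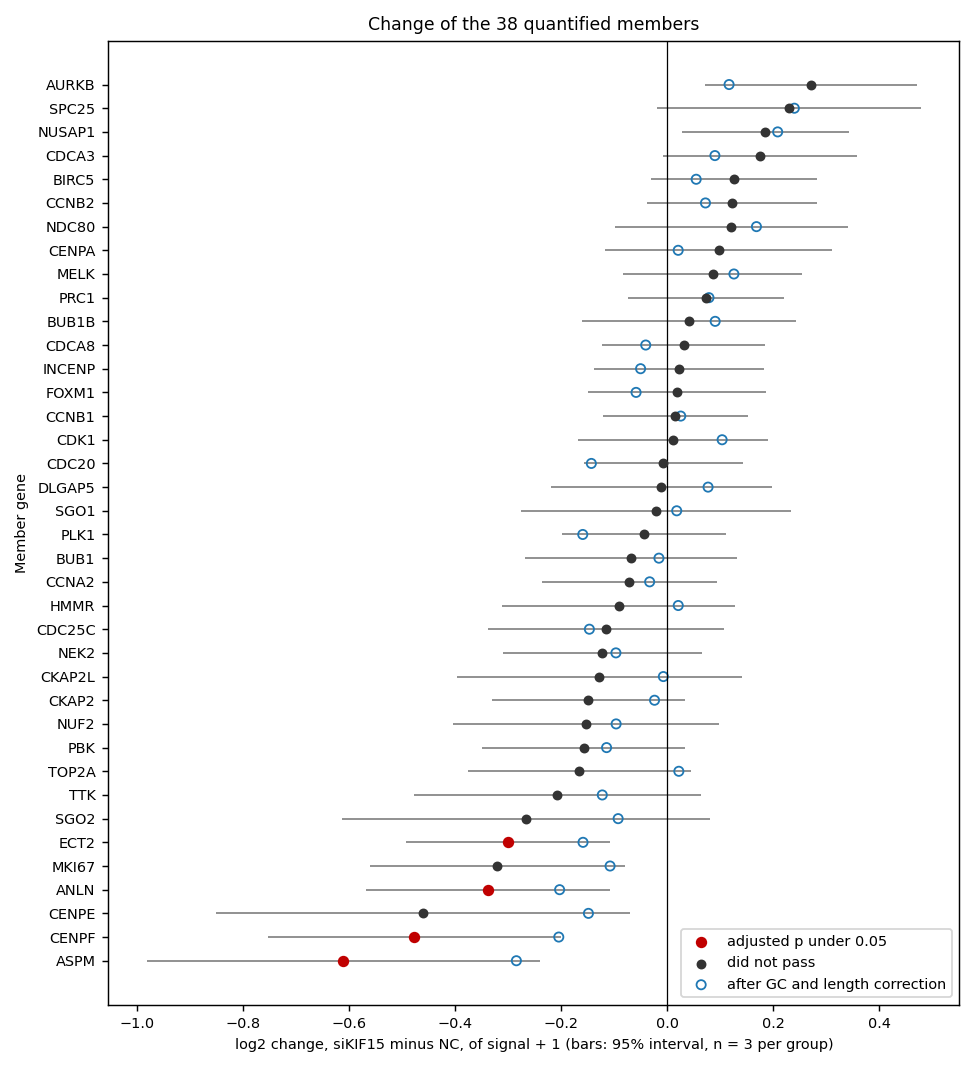
Log2 change of signal plus 1, siKIF15 minus NC, of the 38 quantified members with 95% intervals (n = 3 per group); red points passed an adjusted p of 0.05 and open blue circles are the estimates with GC content and length of the transcript corrected for. The 4 red members lie between -0.61 and -0.30, and their corrected estimates lie between -0.28 and -0.16.

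The 4 calls depended on which libraries were included, and so did the sizes of the changes. Leaving out any single NC library, siKIF15 1 or siKIF15 2 ended all 4 calls, so that no member was called in any of these 5 fits (CENPF then had adjusted p-values of 0.0582 to 0.137 by limma). Calls over all genes dropped in the same 5 fits too, from 2978 to between 1184 and 2187. Calls of lower genes dropped from 1379 to between 417 and 931. Without NC 1, NC 2 or NC 3 the log2 change of CENPF was still -0.48, -0.46 and -0.49, and that of ASPM -0.66, -0.59 and -0.58. Without siKIF15 2 they shrank, to -0.30 for CENPF and -0.40 for ASPM. Over all 18 alternatives the log2 change ran from -0.65 to -0.20 for CENPF and from -0.86 to -0.28 for ASPM. Without siKIF15 3 all 4 calls held and 12 members were called, 10 lower and 2 higher. That was 29.3% of the members tested, near the 30.6% of all genes called in the same fit. The range of adjusted p over 18 alternatives was 0.00019 to 0.186 for CENPF, 0.000185 to 0.195 for ASPM, 0.000141 to 0.242 for ANLN and 0.000255 to 0.18 for ECT2. The direction stayed the same in every one of them.

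The 3 siKIF15 libraries did not carry the set alike. Relative to the NC mean, the median of the 38 members was -0.10 in siKIF15 1, -0.08 in siKIF15 2 and 0.05 in siKIF15 3, on the log2 scale; the medians over 13789 genes were 0.00, 0.02 and 0.00. In siKIF15 1 and siKIF15 2, 24 and 23 of the 38 members lay below the NC mean, against 14 in siKIF15 3. For 16 members both siKIF15 1 and siKIF15 2 were below every NC library: ANLN, ASPM, BUB1, CENPE, CENPF, CKAP2, CKAP2L, DLGAP5, ECT2, HMMR, MKI67, NEK2, NUF2, SGO2, TOP2A and TTK. In siKIF15 3, 5 of these 16 were below the NC range, 5 within it and 6 above it. In 26 of the 38 members siKIF15 3 was the highest of its group. How many of the 13789 genes behave in these ways was not counted. Whether these counts are particular to the members is therefore not known.

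By their medians, the members that were low in siKIF15 1 and 2, a group formed from these same values, had longer transcripts poorer in GC. Their median GC content was 39% and their median length 4310 bases, against 46.2% and 2318 bases in the other 22. Not every one of them was so: MKI67 had a GC content of 48.3%, and NEK2 and NUF2 had 2131 and 1969 bases. Over the 38 members, which are genes of the same libraries and not independent replicates, the difference from the NC mean had a Spearman correlation with GC content of 0.72 in siKIF15 1, 0.62 in siKIF15 2 and -0.22 in siKIF15 3. With length it was -0.49, -0.77 and -0.24. The correlations over all genes at this level had the same signs and were smaller, 0.42, 0.40 and -0.08 with GC content and -0.28, -0.45 and -0.08 with length. The 19 members with a GC content up to the median of 41.8% had a median of -0.25 in siKIF15 1, -0.25 in siKIF15 2 and 0.09 in siKIF15 3; the other 19 had medians of 0.04, 0.02 and 0.03. The members as a set were poorer in GC than genes at this level, whose median was 49.8%.

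**Figure D4:**
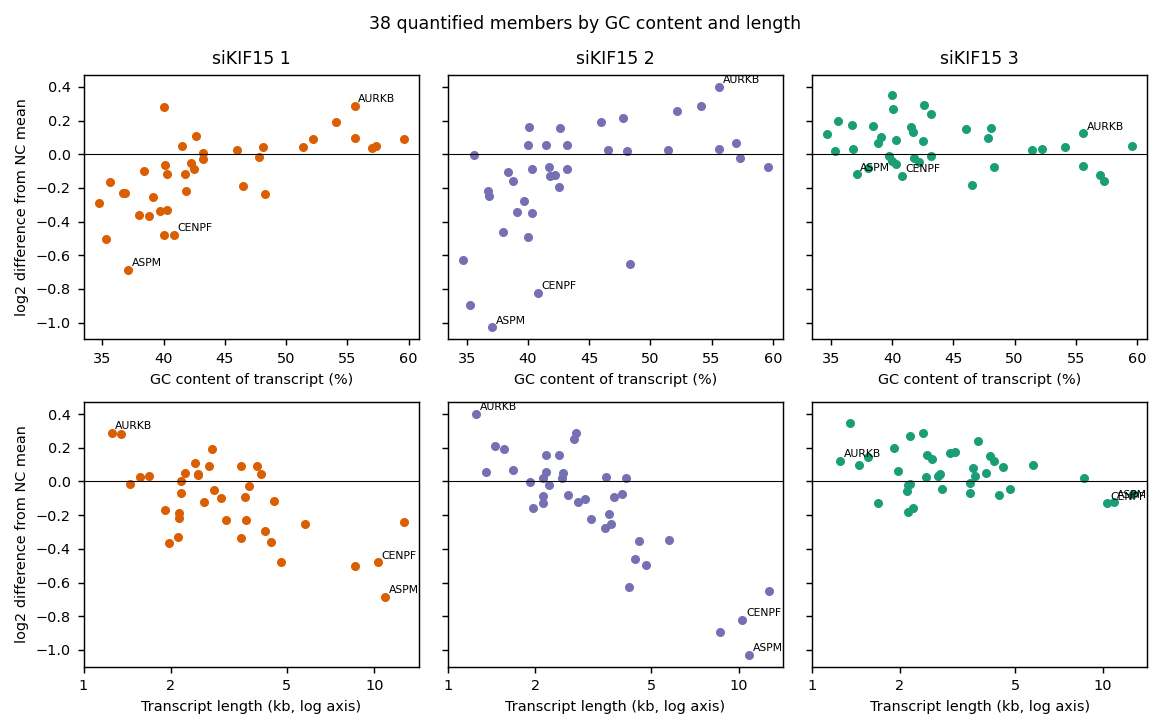
Log2 difference of each of the 38 quantified members from the NC mean, by GC content (top, percent) and length (bottom, kb on a log axis) of its transcript, in siKIF15 1, 2 and 3. ASPM and CENPE, long and AT-rich, lie lowest in siKIF15 1 and 2, where the members slope with GC content (Spearman 0.72 and 0.62), unlike in siKIF15 3 (-0.22).

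After each library was corrected for GC content and length, 27.1% of 16122 tested genes were called, and 6 members: CENPF (-0.20, adjusted p = 0.0399), ANLN (-0.20, 0.0241), ECT2 (-0.16, 0.0225), PLK1 (-0.16, 0.016) and CDC20 (-0.14, 0.0106) as lower and NUSAP1 (0.21, 0.0026) as higher. Of all genes tested in that fit, 2230 were higher and 2147 lower. ASPM no longer passed (-0.28, adjusted p = 0.0595). MKI67 was then at -0.11 (adjusted p = 0.22), CENPE at -0.15, SGO2 at -0.09 and TOP2A at 0.02. The estimates of CENPF and ASPM thus shrank by over 2 times, and why GC content and length moved with siKIF15 1 and 2 was not tested. The corrected median of the 38 members was -0.02, beside -0.01 over all genes tested.

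Levels of the members were also compared per length, as NC mean signal per kb of the longest RefSeq-matched coding transcript. This takes the values as not already scaled to length, which the unstated unit leaves unknown. On that scale CDC20 was highest at 4905.1, followed by CCNB1 at 3509.3, FOXM1 at 2600.6, CDK1 at 2525.3, BIRC5 at 2462.1 and PLK1 at 2113.1. CENPE (54.5), ASPM (61.3) and SGO2 (99.1) were lowest.

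A wider list of 130 other genes with roles in or around G2 and mitosis was read in the same fit. Besides mitotic genes it holds regulators of their transcription and of arrest, among them CDKN1A and E2F5, and the siRNA target KIF15. Of the 127 tested, 13 rose and 10 fell, a share of 18.1% against 18% of all genes, and the median log2 change was 0.05. The 4 rises with the smallest adjusted p were CDKN1A, ZW10, CHEK2 and ENSA. CDKN1A, the gene of the CDK inhibitor p21, measured 28062.8, 25090.5 and 28128.3 in the NC libraries and 49525.5, 50292.5 and 45708.1 with siKIF15, a log2 change of 0.84 ± 0.07 (SE; adjusted p = 1.04e-06). Every siKIF15 library was above every NC library, siKIF15 3 included. ZW10, a kinetochore protein that recruits dynein, measured 866.9, 870.1 and 817.6 in the NC libraries and 1444.3, 1450.5 and 1463.9 with siKIF15 (0.77 ± 0.09; adjusted p = 1.23e-05). CHEK2, a checkpoint kinase of DNA damage, rose by 0.74 (1.675-fold; adjusted p = 1.99e-05), and ENSA, an inhibitor of the PP2A-B55 phosphatase in mitosis, by 0.41 (adjusted p = 0.000426).

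The 4 falls with the smallest adjusted p were CKS2, NIPBL, E2F5 and STAG2. CKS2, a small subunit of CDK1 complexes, measured 24948, 26141.9 and 22797.2 in the NC libraries and 17097.1, 19300.3 and 19718.2 with siKIF15 (-0.40 ± 0.08 SE; adjusted p = 0.0022). E2F5, a repressive E2F that works with the pocket proteins, measured 519.9, 569.4 and 502 in the NC libraries and 351.7, 358.1 and 337.4 with siKIF15 (-0.60 ± 0.12; adjusted p = 0.00233). E2F5 was lower to a like degree in all 3 siKIF15 libraries, by -0.59, -0.56 and -0.65 from the NC mean, and CKS2 was lowest in siKIF15 1, at -0.52, -0.35 and -0.32 (log2). After correction for GC content and length both remained lower, at -0.485 (adjusted p = 5.62e-07) and -0.64 (0.000182). NIPBL, the cohesin loader, fell by 0.55 and STAG2, a cohesin subunit, by 0.35, and their corrected changes were -0.26 and -0.12.

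By role, 5 of 20 condensin, cohesin and separase genes fell (SMC1A, STAG2, PDS5A, PDS5B and NIPBL) and 1 rose (NCAPH2), where 8.33% of all genes fell and 9.66% rose. After the correction for GC content and length 2 of them were lower (NIPBL and STAG2) and 2 higher (NCAPH2 and NCAPG2), and SMC1A, PDS5A and PDS5B did not pass (adjusted p = 0.348, 0.0762 and 0.636 by limma). Before that correction, kinetochore and checkpoint genes held 3 rises (ZW10, MAD1L1 and ZWINT) and no fall among 16. Genes of the spindle, centrosome and cytokinesis held 3 rises (TACC3, HAUS4 and HAUS5) and no fall among 22. With it the 16 held 8 higher and 1 lower (SPC24, adjusted p = 0.0372 by limma), and the 22 held 4 higher and 0 lower. Of 12 mitotic kinesins, KIF22 rose and KIF14 fell. With the correction KIF22 was still higher, KIF14 did not pass (adjusted p = 0.055 by limma) and KIF18B was lower (0.0196). Of 15 genes of the anaphase-promoting complex and its regulators, ANAPC7 rose and ANAPC1 fell, and with the correction 3 were higher and 1 lower. After the correction for GC content and length, 25 of the 127 tested genes of the wider list were higher and 7 lower. In the same fit 2230 of all 16122 tested genes were higher and 2147 lower (27.1% called). The balance of this list thus depends on that correction, and whether it differs from that of all genes was not tested. CDC25B, DSN1 and RBL1, the 3 genes of the wider list on chromosome 20, had no line (CDC25B and DSN1) or values that did not pass the filter (RBL1).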

How the data were processed

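RNA-seq of 6 C4-2B-ENZR libraries (3 NC, 3 siKIF15, grouped by sample title) was deposited as 1 file per library with 1 signal value per gene symbol; per the file headers only the library name is given, and the authors' unit, counting and scaling are not given in the sources used here. Low values lie in bands beside whole numbers, which is how adjusted counts look, but reads were not recovered. The submitters' processing notes name the aligner Bowtie 0.12.2 together with mm8 and mm9, which are mouse assemblies, for samples labelled human; the human build is not given in the sources used here. How reads shared with pseudogenes or overlapping genes were counted is not stated.

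The members and the gene lists were chosen with earlier results of these data known. limma 3.58.1 (R 4.3.3) with an intensity trend was fitted to log2(value + 1) over all 6 libraries and the 16548 genes averaging 1 or more in either group, with no covariate; p-values were adjusted over all of them by the Benjamini-Hochberg method (threshold 0.05). Changes on this scale understate those of low genes. Named in full were members called, members with a mean under 10, the 5 largest and 5 smallest changes, the smallest adjusted p of each role, KIF15 and CDKN1A, and of the wider list the 4 smallest adjusted p in each direction; other members were named after their values were seen. GC content and length came from the longest RefSeq-matched coding transcript of GENCODE 29 (97.4% of tested genes matched) and were corrected by a robust spline fit per library. Positions are RefSeq's on GRCh38.p14. The fit was run on simulated data, drawn independently for each library and without trends in GC content or length. That run therefore cannot speak to such trends in the siKIF15 libraries. In addition, 18 alternative settings were run, 1 of them chosen after seeing the data.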

Additional observations from a re-analysis of the deposited data

How the results depend on the processing

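Among the 41 tested members no direction of a called change turned under any of the 18 alternatives. The count of members called was 4 with a pseudocount of 0.5 or 5, with no filter on low values, with a mean of at least 10, with each of the 3 other scalings and without chromosome 20 genes, the last chosen after seeing the data. Without the intensity trend it was 0, with 1070 calls over all genes and 8 in the wider list. Leaving out 1 library gave 0 to 12 members, 1184 to 5077 genes over all, and 11 to 55 genes of the wider list, each highest without siKIF15 3; the cause was not tested. Libraries scaled to equal totals gave 1204 genes higher and 1753 lower, against 1599 and 1379 as deposited. The correction for GC content and length gave 6 members, 4377 genes over all and 32 of the wider list.

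With the replicate number as a block, 7 members were called, adding MKI67, CENPE and AURKB, and with the block and the correction together 7. Same-numbered libraries had correlations of their deviations of 0.05, -0.05 and 0.02 for numbers 1, 2 and 3 over 13789 genes. Differently numbered libraries ranged from -0.12 to 0.10. The labels do not say whether same-numbered libraries were prepared together. With 3 libraries per group these correlations cannot settle that, and no sample pair was formed. The block moved the calls over all genes to 3184. KIF15 was not called under any alternative (log2 change -0.22 to -0.01), and the median of the members stayed between -0.09 and -0.01. The depth of the libraries is unknown, and 3 libraries per group limit what can be resolved.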

Other observations

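The near absence of signal on chromosome 20 reaches beyond mitotic genes. The highest chromosome 20 gene in the values, NOL4L, measured 73.3, 121.3 and 102.4 in the NC libraries and 100.2, 101.3 and 99.1 with siKIF15, and the next listed under its current symbol, SNAI1, measured 86.8, 67.3 and 69.1 in the NC libraries and 53.3, 24.3 and 43.3 with siKIF15. On every other autosome and on X the highest gene reached at least 23303.9. Chromosome 21 had the next lowest share of listed protein-coding symbols, 66.9%, yet 73.1% of its listed genes exceeded 100 and their median mean signal was 682. The origin of this pattern was not tested.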
